A study of Mus musculus with 5 samples.

Results

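The proteasome genes of a mouse glioma model were compared with those of normal mouse brain. They were taken as the genes whose symbols begin with Psma to Psmg followed by a digit, the naming scheme of proteasome subunits, activators, inhibitor and assembly factors. Of 21149 genes named on the array, 50 matched, with 62 probes. They comprised 3 interferon-inducible catalytic subunits, 14 constitutive subunits of the 20S core, 17 subunits of the 19S regulatory particle, 3 genes of the PA28 activator family, 1 other activator, 1 inhibitor, 7 assembly chaperones and 2 subunits of restricted tissues. The remaining 2, Psmc3ip and Psme3ip1, share the naming pattern only, and encode a meiotic recombination factor and a binding partner of Psme3. A gene was tested when its brightest probe was detected, that is well above background by the scanner software, on 2 or more of the 5 arrays, and 49 of the 50 passed, 48 of them on all 5 arrays. The filter could favour only Psma8, which passed through 2 glioma arrays and is treated apart.

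Total RNA was measured on single-colour Agilent 60K mouse arrays, with 3 arrays of brain tumours diagnosed as glioma and 2 of normal brain, all of postnatal day 150. The tumours are described as a MADM-based model, in which mitotic recombination between paired chromosomes makes sparse labelled cells of changed genotype within an animal. The labels used here name neither the mutated genes, the Cre driver, the strain nor the genotype of the normal brain, and give no treatment. They number replicates without saying whether these are separate animals, so a p-value here weighs a difference against a spread that may be technical. Precision is limited by having 5 arrays in all.

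The proteasome is the cell's main machine for degrading proteins tagged with ubiquitin. Its 20S core is a barrel of stacked rings of alpha and beta subunits, in which the beta subunits Psmb5, Psmb6 and Psmb7 carry the peptide-cutting sites, and the 19S particle recognises, unfolds and feeds in the substrates. Interferon leads cells to build cores with Psmb8, Psmb9 and Psmb10 in place of these, together with the PA28 cap of Psme1 and Psme2, and this immunoproteasome yields peptides suited to display on class I MHC molecules. In the healthy brain constitutive subunits prevail, and the inducible ones are known mainly from microglia and from inflamed tissue.

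Levels are log2 signals relative to the 75th percentile of each array, and changes are glioma minus normal brain on that log2 scale, ± the standard error that limma fitted, from 3 and 2 arrays. Levels of different probes are not comparable with each other. Between 61.5% and 70.3% of the spots other than controls were well above background, the 75th percentile of the signal lay between 723 and 1055, and no spot was saturated. The arrays lay on 1 slide, gliomas in one row and normal brain in the other, so slide row and group cannot be told apart. The labels fitted the markers. The summed linear level of 4 oligodendrocyte progenitor markers was 133 to 189 times the scaling percentile in glioma and 10.8 to 11.1 in normal brain, and that of 5 neuronal markers 29.6 to 48.6 against 277 to 282. In bulk tissue, fewer cells of a type and less RNA per cell cannot be told apart.

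Across the 49 genes tested, 16 were higher in glioma and 2 lower at an adjusted p under 0.05 (limma, Benjamini-Hochberg over all 16888 genes tested). The background is large: 23.6% of all genes were higher, 27.8% lower and 51.4% called in either direction. The 18 called proteasome genes were 36.7% of those tested. The changes were small as a group, since 42 of the 49 (85.7%) lay under 2-fold against 60.7% of all genes, and the median size of change was 0.40 against 0.74. The median change was 0.36, with that of all genes at -0.05. The groups did not overlap in 33 of the 49, and in 74.1% of all genes. The 5 called genes that reached 2-fold were Psmb8, Psmb9, Psme1, Psme2b and Psme3, all higher in glioma.

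**Figure D1:**
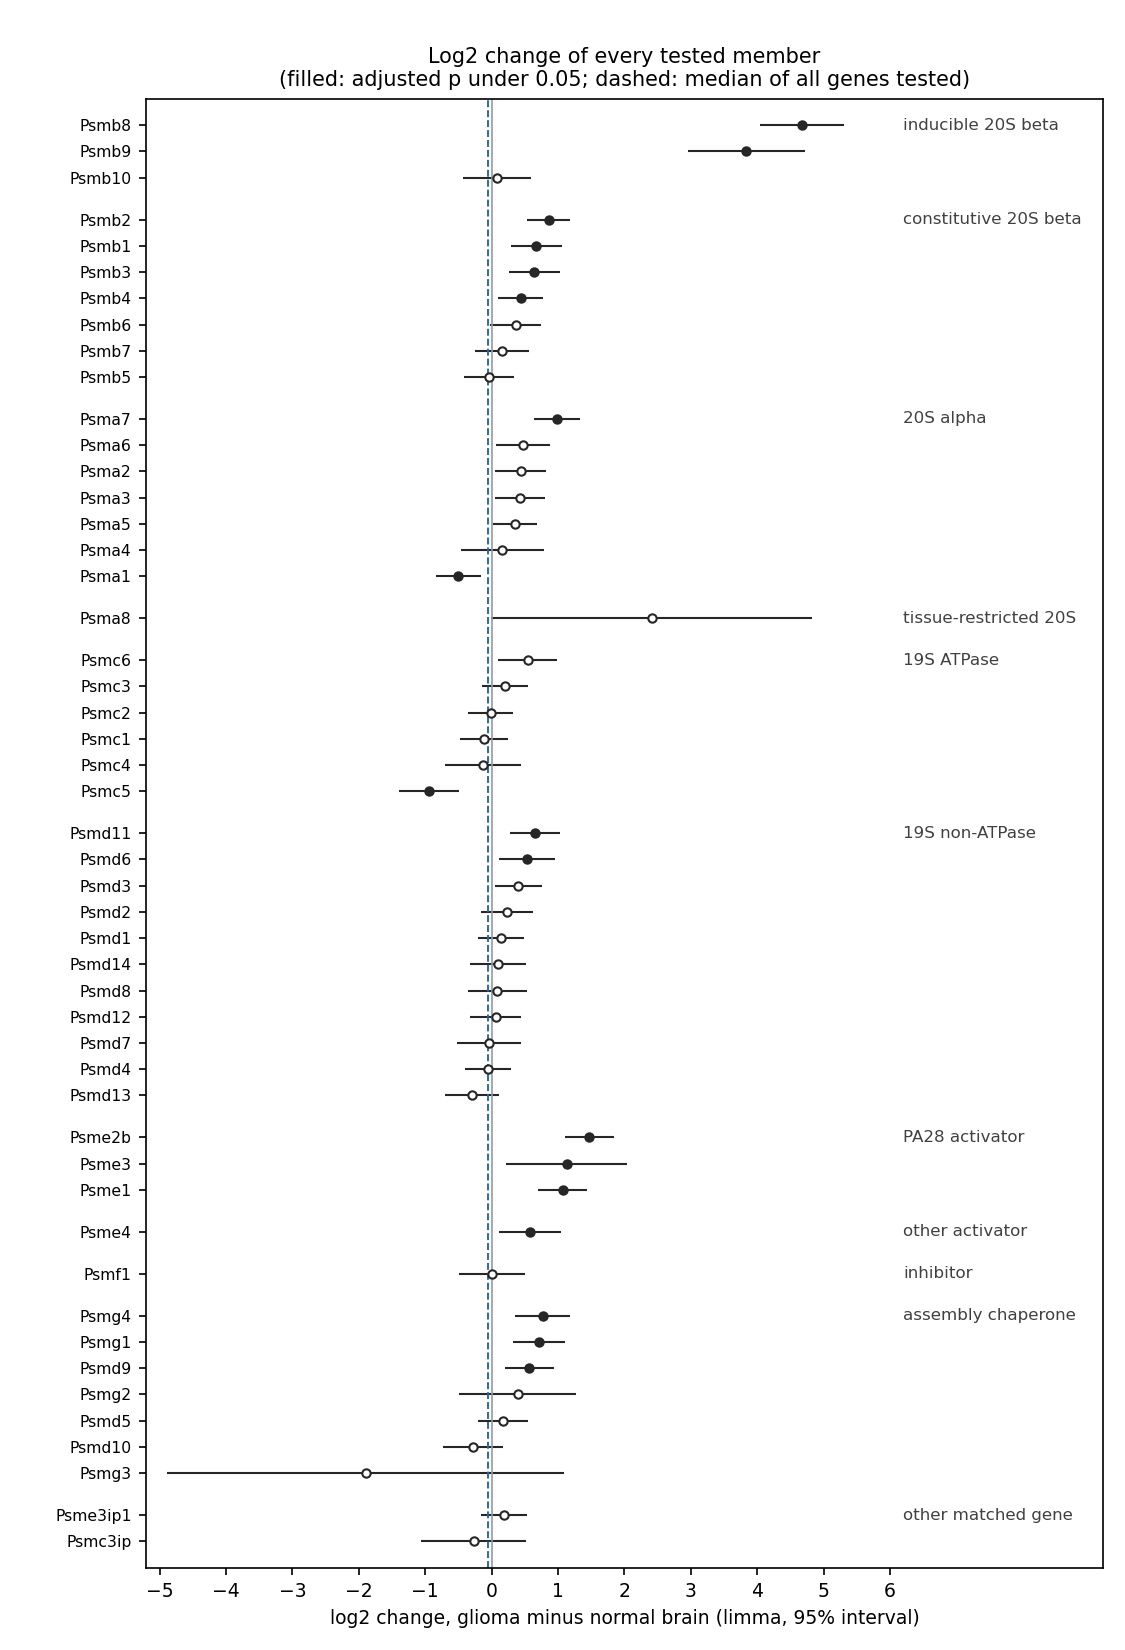
Log2 change of each of the 49 tested genes (x axis, glioma minus normal brain, limma estimate with 95% interval), grouped by role. Filled points passed an adjusted p of 0.05, the dashed line is the median of all genes, -0.05, and Psmb8 and Psmb9 stand at 4.67 and 3.84 while every constitutive 20S and 19S subunit lies between -0.94 and 0.99; the points of Psma8 and Psmg3 rest on undetected or disturbed spots as the text describes.

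The inducible genes divided into 2 that rose and 1 that did not pass the test. The regulatory sequences of these genes and of the constitutive Psmb5 and Psmb6 are shown first, without that of Psmb7. Each is the 250 bases before the transcription start, 5′ to 3′ on the gene's strand, from RefSeq annotation of build GRCm38.p6. The windows are chr17:34197945-34198194 (+ strand) for Psmb8, chr17:34187331-34187580 (- strand) for Psmb9, chr8:105938393-105938642 (- strand) for Psmb10, chr14:54617996-54618245 (- strand) for Psmb5 and chr11:70525107-70525356 (+ strand) for Psmb6. Capitals mark matches to the searched motifs described after the sequences.
Psmb8: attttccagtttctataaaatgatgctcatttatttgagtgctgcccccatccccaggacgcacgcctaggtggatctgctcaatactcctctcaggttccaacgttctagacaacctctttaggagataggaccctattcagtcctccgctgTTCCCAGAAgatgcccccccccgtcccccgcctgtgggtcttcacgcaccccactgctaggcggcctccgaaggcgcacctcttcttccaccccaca
Psmb9: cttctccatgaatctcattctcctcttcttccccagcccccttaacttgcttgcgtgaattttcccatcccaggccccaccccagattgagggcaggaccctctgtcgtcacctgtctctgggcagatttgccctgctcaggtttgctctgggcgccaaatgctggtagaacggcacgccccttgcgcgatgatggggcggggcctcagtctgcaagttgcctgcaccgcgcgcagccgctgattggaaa
Psmb10: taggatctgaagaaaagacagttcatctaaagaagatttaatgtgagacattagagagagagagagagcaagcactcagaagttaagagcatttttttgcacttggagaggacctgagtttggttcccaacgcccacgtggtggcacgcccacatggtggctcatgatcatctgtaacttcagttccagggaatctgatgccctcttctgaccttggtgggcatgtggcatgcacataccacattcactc
Psmb5: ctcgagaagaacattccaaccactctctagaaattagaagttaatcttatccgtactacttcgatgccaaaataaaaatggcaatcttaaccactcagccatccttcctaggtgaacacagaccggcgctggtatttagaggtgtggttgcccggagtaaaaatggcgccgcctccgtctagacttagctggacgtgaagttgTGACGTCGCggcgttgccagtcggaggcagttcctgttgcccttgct
Psmb6: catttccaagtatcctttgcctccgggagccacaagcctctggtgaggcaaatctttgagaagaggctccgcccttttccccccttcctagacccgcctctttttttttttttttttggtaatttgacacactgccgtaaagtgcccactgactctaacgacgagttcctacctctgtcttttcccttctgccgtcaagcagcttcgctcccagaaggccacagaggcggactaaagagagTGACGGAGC

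The windows were searched on both strands for TTCNNNGAA, the letters of the gamma interferon activated site, for the interferon response element, searched as 2 GAAA runs parted by any 2 bases, and for TGACNNNGC, the core of the antioxidant response element through which Nfe2l1 acts on proteasome genes. Of these 5 genes, Psmb8 held TTCNNNGAA, from 97 to 89 bases before its start, and Psmb5 and Psmb6 held TGACNNNGC, from 47 to 39 and from 9 to 1 bases before theirs. No motif was matched in the Psmb9 and Psmb10 windows, which says only that these letters are not in them. TTCNNNGAA occurred in 7.02% of all 32851 promoter windows, and among the 42 proteasome genes with a window in 2, Psmb8 and the assembly chaperone gene Psmg1. The interferon response element occurred in 2.98% of all and in Psmb3, Psmd4 and Psmd9. TGACNNNGC occurred in 10.2% of all and in 5, Psmb5, Psmb6, Psmc6, Psmd12 and Psmd9. A match is a description of letters and not of a bound site.

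Psmb8 and Psmb9, the inducible catalytic subunits that replace Psmb5 and Psmb6, were strongly higher in glioma, whereas Psmb10, the third inducible subunit, showed no detectable difference. Psmb8 stood at 3.32, 3.95 and 3.48 in gliomas 1, 2 and 3, and at -1.28 and -0.91 in normal brain 1 and 2. Every glioma lay more than 4 log2 units above both normal brain samples, and the change was 4.67 ± 0.25, or 25.5-fold (95% interval 4.04 to 5.31 on the log2 scale, adjusted p = 0.000403). Psmb9 stood at 2.81, 2.96 and 1.96 in the gliomas and at -1.42 and -1.10 in normal brain. Its groups were also far apart, with glioma 3 the lowest glioma array, and the change was 3.84 ± 0.34, or 14.3-fold (adjusted p = 0.000967). Both ranked within the top 2% of all genes tested, at the percentiles 99.1 and 98.2 of the log2 change. Both kept their call under all 12 other settings tried, with changes of 4.49 to 5.03 and 3.60 to 4.20.

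Psmb10 gave 4.67, 4.66 and 4.21 in the gliomas and 4.36 and 4.5 in normal brain. Glioma 3 lay below both normal brain samples and gliomas 1 and 2 above them, so the groups overlapped. The change was 0.09 ± 0.20 (adjusted p = 0.742), and its 95% interval of -0.43 to 0.60 does not reach a 2-fold change in either direction.

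The constitutive counterparts showed small differences that did not pass. Psmb5, the chymotrypsin-like subunit, gave 6.72, 6.48 and 6.51 against 6.59 and 6.62, with overlapping groups and a change of -0.03 ± 0.15 (adjusted p = 0.866). Psmb6, the caspase-like subunit, gave 6.19, 6.02 and 5.91 against 5.66 and 5.69, so that all gliomas were above both normal brain samples, but the change of 0.36 ± 0.15 missed the threshold (adjusted p = 0.0965). It passed with normexp background correction (adjusted p = 0.0433) and in the authors' unscaled table (0.0263). Psmb7, the trypsin-like subunit, gave 3.81, 3.51 and 3.53 against 3.5 and 3.42, close together without overlap, and a change of 0.16 ± 0.16 (adjusted p = 0.437).

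**Figure D2:**
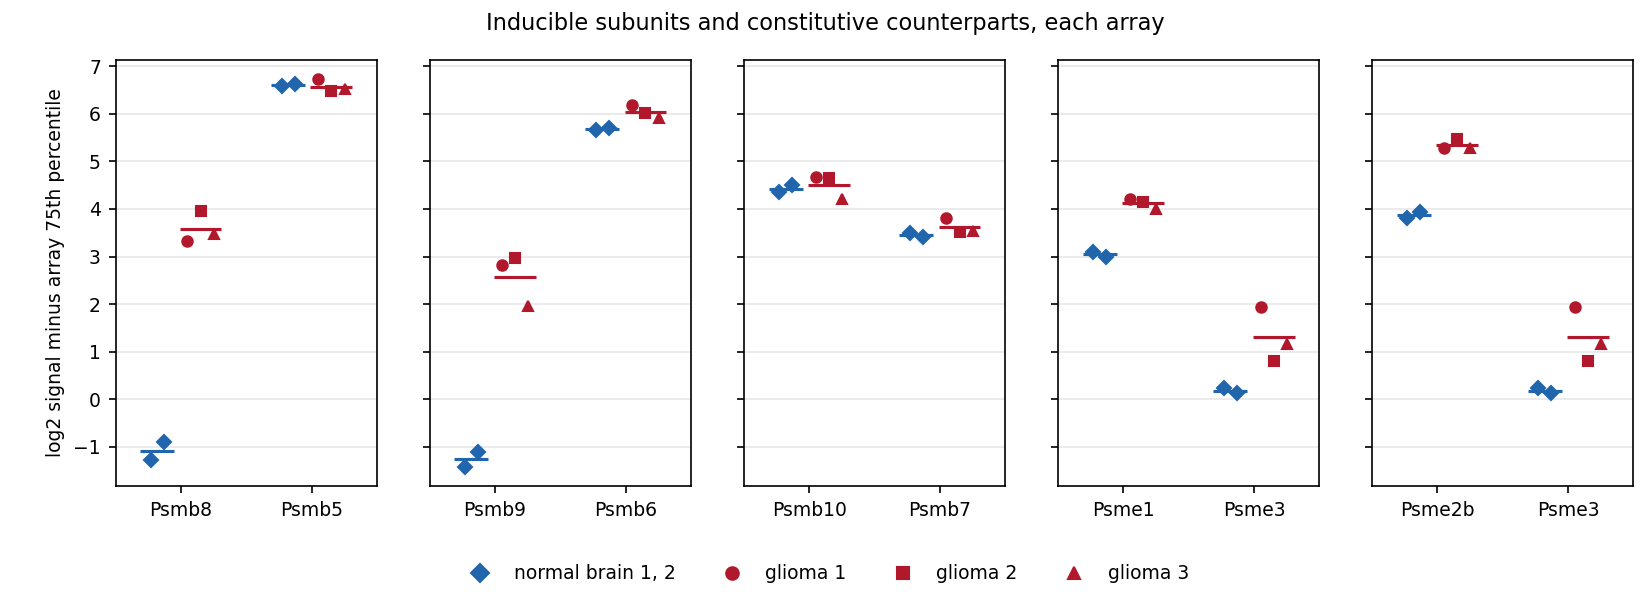
Log2 signal relative to each array's 75th percentile (y axis) for each inducible subunit beside its constitutive counterpart, with every array as a point and group means as bars; heights may be compared between groups for a gene but not between genes. Psmb8 and Psmb9 are the pairs in which the inducible gene alone separates widely, while Psmb10 overlaps between groups.

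Within-array differences between an inducible gene and its counterpart cancel any scaling of the array. The Psmb8 signal rose by 4.71 more than that of Psmb5 (26.1-fold), with each glioma 4.29 to 5.17 above the normal brain mean of the difference and the normal samples 0.17 on either side of it. The Psmb9 signal rose by 3.48 more than that of Psmb6 (11.1-fold), with gliomas at 2.99 to 3.88. Psmb10 and Psmb7 differed in their change by -0.07, with gliomas on both sides of the normal brain mean. In an exact permutation test over the 5 arrays, two-sided, the first 2 pairs gave p = 0.2, which is the smallest this design can give, and the third gave p = 1. Over the 5 pairs compared, adjusted values were 0.5, 0.5 and 1, so the design cannot bring a single pair past 0.05.

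The rise of Psmb8 and Psmb9 was set beside markers of immune cells, in which these genes are normally abundant. The summed level of 8 microglia and macrophage markers was 85.2, 156 and 68.5 times the scaling percentile in gliomas 1 to 3 and 90.2 and 94.1 in normal brain. Such sums weight each probe by its brightness, and Itgam alone made up 47.6% to 48.0% of the normal brain sums. Without Itgam, a choice made after seeing the data, the other 7 markers summed to 79.4, 140 and 47.7 in the gliomas and 46.9 and 49.4 in normal brain, so that gliomas 1 and 2 were above both normal brain samples and glioma 3 lay between them. Glioma 2 was highest in both sums and in Psmb8 and Psmb9. It was also highest in the sums of astrocyte, myelin, cell division and germ cell markers. Sums of neuronal, oligodendrocyte progenitor, endothelial and B cell markers were highest in glioma 3, and that of T and NK cell markers in glioma 1. Psmb8 stood 4.41, 5.04 and 4.57 above the normal brain mean in gliomas 1 to 3. Of the 8 markers, all detected, 6 had a change above 0, with Aif1, Cd68 and Tyrobp called higher and Itgam called lower. Of 3 markers of all leukocytes, Cd52 and Ptprc were higher and Coro1a lower, with sums of 8.47 to 21.5 against 15.2 to 15.3. Coro1a made up 93.9% to 94.1% of the normal brain sums. Without it, also a choice made after seeing the data, the 2 markers left summed to 4.49, 15.8 and 7.29 in the gliomas against 0.926 and 0.898. The 7 T and NK cell markers summed to 1.94 to 2.74 against 2.16 to 2.48, with Cd3g not detected on any array and Cd8a on 1 glioma array. How much of the Psmb8 and Psmb9 signal came from immune cells was not tested.

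Genes of the pathways that surround the immunoproteasome are given from lists chosen for their roles. Earlier results of these data were known when the lists were chosen, so their shares are a description and not independent support. Of 13 genes of class I peptide loading, 8 were higher (61.5%, against 23.6% of all genes) and 1 lower (7.69%, against 27.8%), with a median change of 2.36. The 4 largest rises were those of Nlrc5, the transactivator of class I genes, at 6.28 ± 0.39 (detected in only 1 of the normal brain samples), the class I heavy chain genes H2-K1 at 4.55 ± 0.19 and H2-D1 at 3.72 ± 0.29, and Tap1, which carries peptides into the endoplasmic reticulum, at 4.34 ± 0.24. Canx, the chaperone calnexin, fell by 0.55 on the log2 scale. Of 17 genes of interferon signalling 15 were tested, and 9 were higher (60.0%) and 1 lower (6.67%), with a median of 0.76. The largest rises were those of the transcription factor genes Irf8 (2.81 ± 0.23), Irf9 (2.54 ± 0.15) and Irf1 (1.87 ± 0.16) and of the feedback inhibitor Socs3 (2.48 ± 0.20), and the kinase gene Jak1 fell by 0.75. Ifng, encoding interferon gamma, was detected on no array, and Ifnb1, encoding interferon beta, on 1 glioma array only. The 8 rises named here passed under every other setting in which they were tested, whereas the falls of Canx and Jak1 did not pass in the authors' unscaled values or without either normal brain sample, and that of Canx not without glioma 2.

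The PA28 genes were all higher in glioma. Psme1, the alpha subunit of the cap that opens the core for peptides, gave 4.21, 4.15 and 4.0 in the gliomas and 3.1 and 3.0 in normal brain. The groups lay apart by more than the spread within either, and the change was 1.07 ± 0.14, or 2.10-fold (adjusted p = 0.00308). Psme2, the beta subunit, has no probe that carries its own accession, and 3 probes carry that of Psme2b, a near-identical gene copy, so the copies cannot be told apart here. The brightest of the 3 gave 5.29, 5.47 and 5.29 against 3.81 and 3.94, a change of 1.47 ± 0.14 or 2.77-fold (adjusted p = 0.0012). The gliomas again lay well above both normal brain samples, and the mean changes of the other 2 probes, 1.62 and 0.98, had the same direction.

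Psme3, the PA28 gamma subunit, forms a separate nuclear cap that is not part of the interferon response. Its values were 1.94, 0.80 and 1.17 in the gliomas and 0.23 and 0.12 in normal brain. The gliomas were all higher but spread over more than 1 log2 unit, glioma 1 being the highest, and the change of 1.13 ± 0.36 or 2.19-fold passed narrowly (adjusted p = 0.0477). The call was lost without glioma 3 (adjusted p = 0.085), without normal brain 1 (0.154) or 2 (0.182), with no detection filter (0.0539) and with a block for the replicate number (0.0552), while the change stayed between 1.08 and 1.20 in these settings. The change of Psme1 differed from that of Psme3 by -0.06 (exact permutation p = 0.8, two-sided) and that of Psme2b by 0.34 (p = 0.6), both with an adjusted p of 1 over the 5 pairs. In both pairs gliomas lay on either side of the normal brain samples, so neither difference exceeded the spread. The Psme2b difference was 0.69 without glioma 1 and 0.03 without glioma 2, and that of Psme1 was 0.21 without glioma 1.

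Changes in the constitutive core and regulatory particle were small and of both directions. Of the 31 constitutive 20S and 19S subunits, 7 were higher (22.6%, against 23.6% of all genes) and 2 lower (6.45%, against 27.8%). All lay below 2-fold, with changes from -0.94 to 0.99 and a median of 0.20. Changes were above 0 in 22, and above the median of all genes in 25. The latter count was 22 to 28 under the other settings. The 14 core subunits had a median of 0.43, with 5 higher (35.7%) and 1 lower (7.14%). The 17 subunits of the 19S particle that the naming pattern covers had a median of 0.09, with 2 higher (11.8%) and 1 lower (5.88%). The difference between these medians was not tested.

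**Figure D3:**
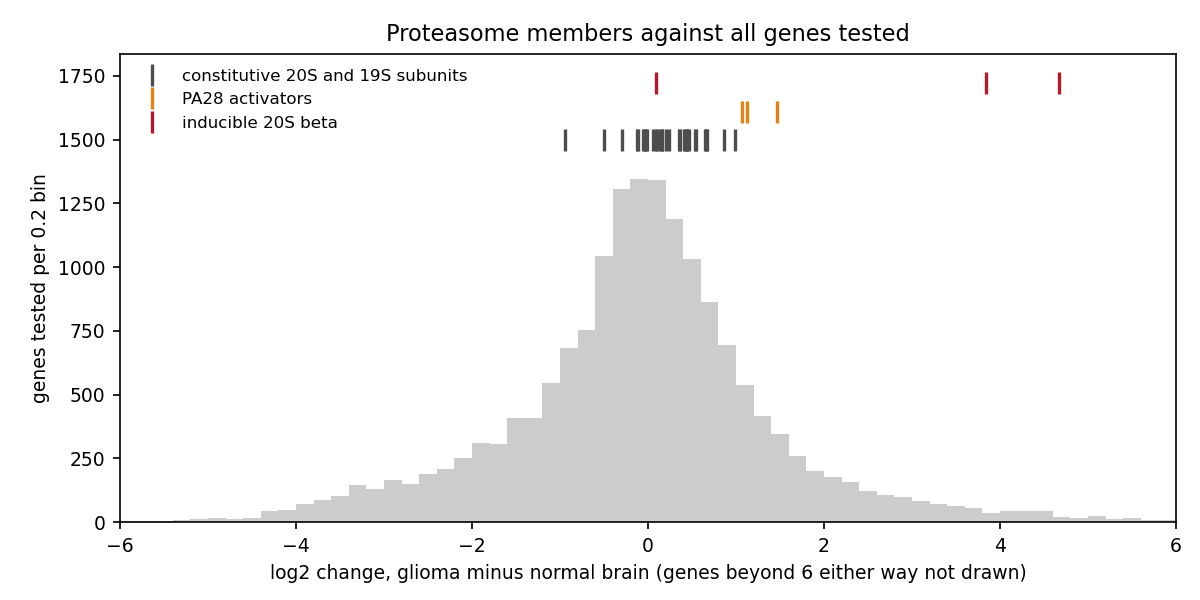
Histogram of the log2 change of all genes tested (x axis, glioma minus normal brain; y axis, genes per bin), with ticks for 3 groups of proteasome genes above it. The 31 constitutive subunits lie within 1 log2 unit of 0, the 3 PA28 genes between 1.07 and 1.47, and Psmb8 and Psmb9 in the right tail at 4.67 and 3.84.

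The 7 alpha subunits form the outer rings of the core and gate its entrance. Psma7, alpha 4, had the highest change, with 5.62, 5.45 and 5.57 in the gliomas against 4.51 and 4.60, or 0.99 ± 0.14 and 1.98-fold (adjusted p = 0.00346). Psma1, alpha 6, was the only member of the ring that was lower, with 3.53, 3.46 and 3.59 against 4.0 and 4.06, or -0.50 ± 0.13 (adjusted p = 0.0275). Subunits of the same ring thus moved in opposite directions, each without overlap between the groups. The other 5, Psma2, Psma3, Psma4, Psma5 and Psma6, did not pass, with changes of 0.16 to 0.47. All but Psma4 were above both normal brain samples in every glioma (adjusted p = 0.0582 to 0.0708) and passed in the authors' unscaled table. Psma2, Psma3 and Psma6 also passed with normexp background correction, and Psma3, Psma5 and Psma6 with quantile normalization. None of them passed with no detection filter or with the replicate block. In the authors' unscaled table Psma1 changed by -0.14 and lost its call.

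Of the 7 constitutive beta subunits, Psmb1, Psmb2, Psmb3 and Psmb4, which carry no catalytic site, were all higher. Psmb2 had the highest change, with 1.03, 1.02 and 0.97 in the gliomas against 0.12 and 0.17, or 0.86 ± 0.13 and 1.82-fold (adjusted p = 0.00433). The gliomas lay within 0.06 of each other in this gene. Psmb1, Psmb3 and Psmb4 changed by 0.67, 0.64 and 0.44 (adjusted p = 0.0164, 0.0182 and 0.0433). The 3 catalytic subunits Psmb5, Psmb6 and Psmb7 had the lowest changes of the 7, and none passed.

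The 6 ATPases of the 19S base, Psmc1 to Psmc6, use ATP to unfold substrates. Psmc5 was lower, with 4.0, 3.65 and 3.60 in the gliomas against 4.69 in both normal brain samples, a change of -0.94 ± 0.18 or 1.92-fold lower (adjusted p = 0.00936). It was the largest change of the 31 constitutive subunits after that of Psma7, and opposite in direction. In the authors' unscaled table it was -0.59 and missed the threshold (adjusted p = 0.0555). Psmc6 had the highest change of the ATPases, with 3.06, 2.82 and 3.24 against 2.54 and 2.45, or 0.54 ± 0.18, without overlap but just short of the threshold (adjusted p = 0.0503). The other 4 changed by -0.12 to 0.20 and did not pass.

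The 11 other 19S subunits that the naming pattern covers include those of the lid, its deubiquitinase Psmd14 and the ubiquitin receptor Psmd4. Psmd11, a scaffold subunit of the lid, had the highest change, with 2.22, 2.04 and 1.96 against 1.45 and 1.40, or 0.65 ± 0.15 (adjusted p = 0.0165). Psmd6, also of the lid, gave 3.56, 3.22 and 3.51 against 2.94 and 2.86, or 0.53 ± 0.17 (adjusted p = 0.046). Both were above normal brain in every glioma. Psmd13, a lid subunit, had the lowest change, with 3.13, 2.95 and 2.78 against 3.22 and 3.27, or -0.29 ± 0.16 (adjusted p = 0.183). Psmd14 and Psmd4 changed by 0.10 and -0.05 and did not pass, nor did Psmd1, Psmd2, Psmd3, Psmd7, Psmd8 or Psmd12, whose changes were -0.04 to 0.40. Among the 11 genes with over 1 detected probe, only Psmd12 had probes of opposite direction, with mean changes of 0.06 and -0.04.

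Psme4, or PA200, is a nuclear activator with a role in histone degradation. It gave -0.01, -0.43 and -0.38 in the gliomas against -0.86 and -0.83, so that all gliomas were higher, and the change was 0.58 ± 0.18 (adjusted p = 0.0474). Its dimmer probe changed by only 0.07, and with detected probes averaged the change was 0.32 and did not pass (adjusted p = 0.116). Psmf1, the PI31 inhibitor, gave 0.06, -0.22 and -0.39 against -0.06 and -0.32, with overlapping groups and a change of 0.01 ± 0.19 (adjusted p = 0.968).

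Of the 7 assembly chaperones, 3 were higher (42.9%, against 23.6% of all genes) and none passed as lower (against 27.8%). Psmg4, which acts with Psmg3 in building the alpha ring, gave 0.15, 0.42 and 0.42 against -0.51 and -0.37, a change of 0.77 ± 0.16 (adjusted p = 0.0131). Psmg1, which acts with Psmg2 at the same step, changed by 0.71 ± 0.15 (adjusted p = 0.0146), and Psmd9, a chaperone of the 19S base, by 0.57 ± 0.14 (adjusted p = 0.0245). Psmg2 and the base chaperones Psmd5 and Psmd10 did not pass, at 0.39, 0.17 and -0.28. Psmg2 was the most variable of these, with 2.17, 2.18 and 1.21 in the gliomas against 1.40 and 1.52, glioma 3 lying below normal brain.

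Psmg3 showed the lowest change of all, -1.90 ± 1.17, which rested on a single spot. Its values were 1.97, 2.13 and 1.58 in the gliomas, 1.78 in normal brain 1 and 5.81 in normal brain 2. The spot of normal brain 2 was marked by the scanner software for a nonuniform and outlying local background, whose SD was 175 against 13.4 to 18.3 on the other arrays. Among the spots of each proteasome gene's brightest probe, it was the only one marked for a nonuniform background on any array. Without normal brain 2 the change was 0.12 (adjusted p = 0.8), and without normal brain 1 it was -3.92 (adjusted p = 0.00741).

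The subunits of restricted tissues were at the limit of detection. Psmb11, the thymus-specific beta subunit, was detected on no array and not tested. Psma8, the testis-specific counterpart of Psma7, gave -3.23, -5.0 and -6.50 in the gliomas and -7.39 and -7.25 in normal brain, and was well above background in gliomas 1 and 2 only. The glioma mean was 1.26-fold above the lowest signals well above background on the normal brain arrays. That mean includes the undetected value of glioma 3, so a minimum rise was not shown. The change did not pass (adjusted p = 0.0859), and with normexp background correction it was only 0.34 and did not pass. Glioma 1 was the brightest by over 1 log2 unit. Of 4 germ cell markers, Prm1 was well above background in all gliomas and in neither normal brain sample, Dazl in normal brain only, and Sycp3 and Ddx4 were highest in glioma 3, where Psma8 was not detected. Their part in the Psma8 signal was not tested. The 2 genes matched by name alone did not pass, with changes of -0.27 for Psmc3ip and 0.19 for Psme3ip1.

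The glioma arrays differed among themselves in the constitutive subunits, and the labels do not say whether they come from separate animals. Relative to the normal brain mean, the median of the 31 subunits was 0.39 in glioma 1, 0.11 in glioma 2 and 0.23 in glioma 3, and 0.02 on either side of 0 in normal brain. Glioma 1 was the highest glioma array in 26 of the 31, glioma 3 in 5 and glioma 2 in none. In all genes glioma 1 was highest in 37.3%. This order depends on the scaling of the arrays. Quantile normalization gave 22, 4 and 5 for gliomas 1, 2 and 3, and in the unscaled values of the authors these counts were 14, 15 and 2. Psmb8, Psmb9 and Psme2b had another order, with glioma 2 the highest in each. The inducible Psmb10 and Psme1 were highest in glioma 1, but only by small margins over glioma 2. Psmb10 stood at 4.67 against 4.66 and Psme1 at 4.21 against 4.15. Such margins depend on the scaling too, so a split among the inducible genes was not shown. Of all 49 genes tested, 8 were highest in glioma 2, among them Psmg1 and Psmg2.

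**Figure D4:**
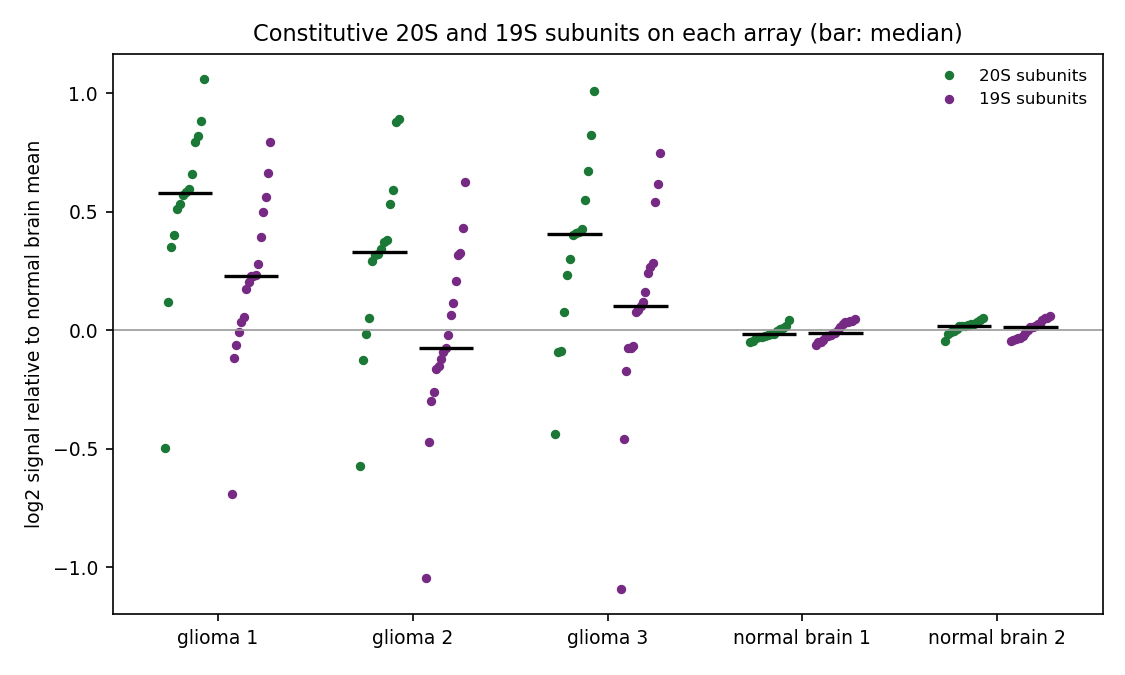
Log2 signal of each constitutive subunit relative to its normal brain mean (y axis) on each of the 5 arrays (x axis), with 14 core subunits and 17 subunits of the 19S particle as points and medians as bars. The medians over all 31 are 0.39, 0.11 and 0.23 in gliomas 1, 2 and 3, and the normal brain arrays lie close to 0; the order of the gliomas changes with the scaling.

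Of 30 further genes that serve the proteasome, 29 were tested, with 3 higher (10.3%, against 23.6% of all genes), 7 lower (24.1%, against 27.8%) and a median change of 0.01. Those higher were Sem1 (0.87 ± 0.14), the ubiquitin shuttle gene Ubqln1 (0.65 ± 0.15), and Rps27a, which encodes ubiquitin fused to a ribosomal protein (0.46 ± 0.13). Sem1 is a small subunit of the 19S lid that the naming pattern misses, so it is not among the 19S subunits counted above. The largest falls were those of Zfand5, a proteasome-binding activator, by 1.41 on the log2 scale, of the deubiquitinase gene Usp14 by 0.99, of Nfe2l1 by 0.95, and of Zfand2a, an arsenite-inducible proteasome-binding protein, by 0.85. Nfe2l1, the transcription factor known for driving subunit genes when proteasome activity is short, gave -1.0, -1.30 and -1.46 in the gliomas against -0.29 and -0.30, all gliomas being lower (adjusted p = 0.0101). In the authors' unscaled values 8 of the 29 were higher and 1, Zfand5, lower, and Nfe2l1 stood at -0.60 (adjusted p = 0.0672). Without either normal brain sample, only Zfand5 of the 7 genes named here passed. The rise of Rps27a did not pass with quantile normalization, with averaged probes or without glioma 1 or 2.

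With either normal brain sample left out, the spread came from the gliomas alone, the single remaining sample being assumed to vary like them, and 5 proteasome genes passed. The changes themselves moved little, the median of the 31 constitutive subunits being 0.22 and 0.19 against 0.20. Psmb8, Psmb9, Psme1 and Psme2b passed both times, joined by Psma7 without normal brain 2 and by Psmg3, with its disturbed spot, without normal brain 1. Single gliomas decided fewer calls. Psmb4 and Psmd6 lost theirs without glioma 1, Psma1, Psmb4, Psmd9 and Psme4 without glioma 2, and Psmd6, Psme3 and Psme4 without glioma 3, where Psma8, Psma5, Psmd3 and Psmg2 gained one. Psmc6 gained a call without glioma 2. In the authors' unscaled table the median of all genes moved from -0.05 to 0.31, the share of calls that were higher from 46.0% to 63.7%, and the proteasome genes gave 25 higher and 0 lower calls; the median of the 31 constitutive subunits was 0.56 there.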

How the data were processed

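Total RNA of 3 glioma samples and 2 normal brain samples was hybridised to 1-colour Agilent arrays, 1 array each. The scanner files hold intensity values per spot, which the authors made with Agilent Feature Extraction (version 10.7.3.1, according to the submitters' processing notes) with background subtracted per the file headers, together with 0 or 1 flags per spot that the authors' software deposited. A further table that the authors deposited gives log2 values, which matched those computed from the scanner files and are unscaled between arrays.

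Control spots and 23 probes with outlier flags were left out, repeated spots were averaged, and log2 processed signals were centred on each array's 75th percentile. Probes were named through RefSeq accessions in the supplied gene list: 29787 of 55681 carried an accession, and 28019 were named. Each gene was represented by its brightest probe. No column of another sample was present. All 16888 detected genes were fitted with limma 3.58.1 (lmFit, eBayes) in R 4.3.3 with the data.table package (1.17.8), after the fit was tested on simulated data. Python 3.11.15, pandas 2.3.3, scipy 1.17.1, numpy 2.4.6 and matplotlib 3.10.9 served for tables, permutation tests and figures. Alternatives were normexp background correction (offset 50, on median spot signals, chosen after seeing the data), quantile normalization, the authors' deposited log2 values, other detection filters, averaged probes, each array left out and a replicate block. Psme2b stood in for Psme2, also a choice made after seeing the data.

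The members and lists were chosen with earlier results of these data known. Named in full were the 5 immunoproteasome genes, their counterparts, the highest and lowest change of each other class, and up to 4 called genes per direction of each list. Psmb1, Psmb3, Psmb4, Psmd6, Psmg1, Psmd9, Psmg2 and the marker genes were named after their values were seen. The labels do not say whether replicate numbers pair the samples. Same-numbered samples gave correlations of deviations of 0.013 and 0.0489. With 2 normal brain arrays the deviations of one mirror those of the other, so these values cannot exclude pairing.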

Additional observations from a re-analysis of the deposited data

How the results depend on the processing

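Precision is limited by 3 and 2 arrays, and for dim genes by the signal over background. Psmb8, Psmb9, Psme1 and Psme2b passed as higher and Psmb10 did not pass under all 12 alternatives. Slide could not be fitted as a block, since all arrays lay on 1 slide.

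Leaving out 1 array at a time (without a normal brain sample the spread rests on the gliomas alone), all genes gave 1973 to 4334 higher and 2624 to 4990 lower calls, proteasome genes 4 to 17 and 0 to 2, constitutive subunits 0 to 8 and 0 to 2, accessory genes 0 to 5 and 1 to 7, class I loading 8 to 9 and 0 to 1, and interferon signalling 5 to 8 and 0 to 1, where the lowest counts of higher calls, except for class I loading, came without a normal brain sample. The all-gene median was then -0.0632 to -0.0325, the difference of the changes of Psmb10 and Psmb7 -0.2003 to 0.0411, and that of Psme1 and Psme3 -0.3248 to 0.2148, so both reversed in sign. The authors' table gave 25 higher and 0 lower proteasome calls, 16 and 0 among constitutive subunits, 8 and 1 among accessory genes, 0 lower calls in class I loading and 0 in interferon signalling, with medians of 0.3093 for all genes and 0.5615 for constitutive subunits, as its values are not scaled between arrays. Normexp gave 13 higher constitutive and 6 higher accessory calls, an all-gene median of -0.12 and a Psme1 and Psme3 difference of 0.0291; quantile normalization gave 11 higher constitutive calls, -0.0112 and 0.0048. No detection filter gave 2 lower interferon calls and an all-gene median of -0.1764, and detection on all 5 arrays a median of -0.0806. The causes of these moves, other than of the missing scaling, were not tested.

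With the replicate block, 14 proteasome genes were higher and 1 lower, 1 constitutive subunit and 0 class I genes were lower, and the Psmb10 and Psmb7 difference reversed to 0.0372. Pairing by replicate number was neither shown nor excluded, so the block rests on a shared number only.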
